A study of Mus musculus with 2 samples.

Results

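The natriuretic peptide locus of the mouse lies on chromosome 4 and holds Nppa and Nppb, the genes of the atrial and the B-type natriuretic peptide. With them were taken Gm13054, an antisense gene that overlaps Nppa, and Clcn6, the next gene beyond it. All 4 listed genes had a row in the deposited table of 12557 genes. They were chosen by position and with their values in both libraries already known, so their own differences are given as a description. The cells came from the embryonic sinoatrial node, the small muscle of the heart that sets its beat, and were taken by fluorescence sorting.

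There were 2 libraries of ICR mice, and each was made from embryos pooled by genotype. The Isl1 mutant library came from embryos with the genotype Hcn4-CreERT2; Isl1f/f; Rosa-tdTomato, and the control library from embryos with the genotype Hcn4-CreERT2; Isl1+/+; Rosa-tdTomato. Both groups therefore carried the same recombinase, which tamoxifen switches on in cells that use the pacemaker channel gene Hcn4, and the same red reporter. Tamoxifen was given to both at stage E10.5 (embryonic days), tissue was taken 36 hours later, and the labels give E12.5 as the end of the harvest. Endothelial cells were depleted with beads before the sort. The recombinase limits the deletion to cells with Hcn4 activity, and the sources used here do not say how many embryos entered each pool. With 1 library per genotype there was no replicate error and no test was possible, so every difference below compares these libraries.

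Natriuretic peptides are hormones that heart muscle secretes. The precursor of the atrial peptide is cut by the membrane protease corin, and both peptides bind the receptor guanylate cyclase encoded by Npr1, which raises cyclic GMP in the target cell. In the embryonic heart Nppa is a standard marker of the working muscle of the chambers and is kept low in the pacemaker muscle of the node, where the T-box repressor Tbx3 is active. Nppb lies next to it and is best known for its use as a marker of a strained ventricle.

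The sequences just before both peptide genes are shown because these neighbours differed together between the libraries. Each run holds the 250 bases before the annotated start on the plus strand, from RefSeq on GRCm38.p6, at chr4:147985650-147985899 for Nppb and chr4:148000472-148000721 for Nppa. Capitals mark matches, on either strand, to short binding motifs of heart regulators.
Nppb: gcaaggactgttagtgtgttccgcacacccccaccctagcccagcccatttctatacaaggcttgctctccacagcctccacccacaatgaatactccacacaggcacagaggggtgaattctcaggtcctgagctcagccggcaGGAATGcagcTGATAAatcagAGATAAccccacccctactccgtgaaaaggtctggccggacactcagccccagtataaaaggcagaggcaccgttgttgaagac
Nppa: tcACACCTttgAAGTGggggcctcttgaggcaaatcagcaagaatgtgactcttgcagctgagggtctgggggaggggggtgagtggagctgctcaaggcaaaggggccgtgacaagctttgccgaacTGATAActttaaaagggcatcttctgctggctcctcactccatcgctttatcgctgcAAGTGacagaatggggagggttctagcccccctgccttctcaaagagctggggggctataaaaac

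The motifs searched on both strands were AGGTGT for T-box factors, AAGTG for NK-2 homeobox factors, TAATTA for LIM-homeodomain factors, TGAGTCA for AP-1, CATTCC for the MCAT element and the CArG box of serum response factor. For GATA factors the letters were GATA with A or T before it and A or G after it. Before Nppa, AGGTGT stood on the minus strand 248 to 243 bases before the start, and AAGTG followed on the plus strand 239 to 235 bases before it. A further AAGTG lay 65 to 61 bases before the start, and TGATAA lay 122 to 117 bases before it. Before Nppb, CATTCC lay on the minus strand 105 to 100 bases before the start, TGATAA 95 to 90 bases and AGATAA 84 to 79 bases before it, both on the plus strand. No match overlapped another. Among 32544 promoters with distinct sequence, of 250 bases before to 50 after a start, 13.8% held AGGTGT, 46.3% AAGTG and 14.6% CATTCC. The GATA letters with A before them were in 18.6% and those with T before them in 15.1%. TAATTA (5.29% of promoters), TGAGTCA (5.19%) and the CArG box (1.64%) had no match in the window of either peptide gene, and none of these motifs matched in that of Clcn6. The table of promoters held 3 of the 4 locus genes, without Gm13054. A match is a description of letters, and the RefSeq start of Nppb lies 112 bases inside the first exon that GENCODE gives it.

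The levels rested on inferred totals of 119018888 reads in the mutant library and 110117186 reads in the control library. These were fitted as the smallest totals that turned the values of short single-exon genes into whole reads. All read counts and intervals below depend on them. Values are RPKM, reads scaled to exon length and library size, and intervals are exact 95% intervals that cover counting error only. Isl1, the deleted LIM-homeodomain factor, stood at 1.52 RPKM in the mutant library and 7.65 RPKM in the control library. Markers of heart muscle were high, with Actc1 (cardiac actin) at 8539 RPKM in mutant cells and 5374 RPKM in control cells. The defining pacemaker marker Hcn4 was present but low, at 0.541 RPKM in mutant cells and 1.99 RPKM in control cells.

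Nppa, the atrial peptide gene (ENSMUSG00000041616, plus strand, 147374831 to 147376188 in mm9), stood at 861 RPKM in the mutant library (interval 855 to 866) and at 168 RPKM in the control library (165 to 170.1). The fold of mutant over control was 5.13 (interval 5.05 to 5.21), based on no fewer than 102851 mutant and 18540 control reads as counted. By level it ranked 34 of 12446 gene symbols in mutant cells and 177 in control cells. Its share of all RPKM in the table was 0.331% in mutant cells and 0.0673% in control cells.

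Nppb, the B-type peptide gene (ENSMUSG00000029019, plus strand, 147359897 to 147361314), ends 13516 bases before Nppa begins. It stood at 15.02 RPKM in the mutant library (14.3 to 15.8) and at 2.44 RPKM in the control library (2.14 to 2.77). The fold of mutant over control was 6.16 (interval 5.37 to 7.09), based on no fewer than 1591 mutant and 239 control reads as counted. Its rank by level was 2455 in mutant cells and 8693 in control cells. Nppb was thus a low transcript beside its neighbour in each library: Nppa had 57.3 times its RPKM in mutant cells and 68.8 times in control cells.

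**Figure D1:**
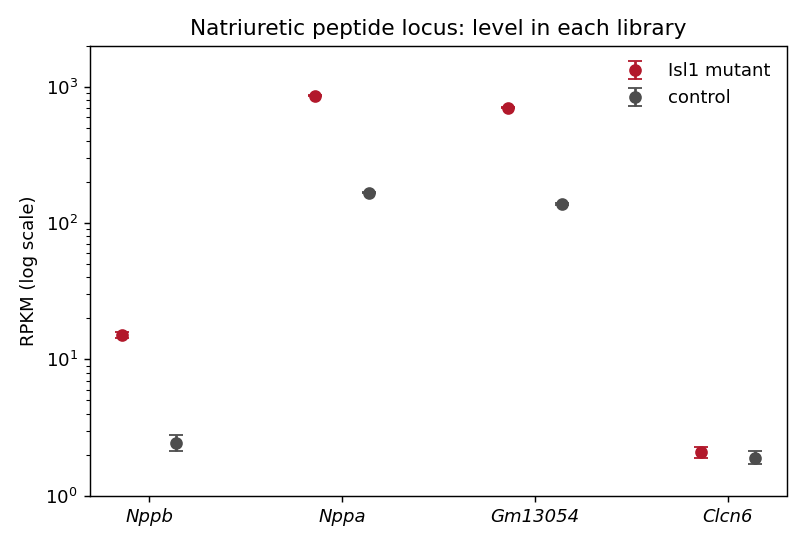
RPKM on a log scale for Nppb, Nppa, Gm13054 and Clcn6, with the Isl1 mutant library left of the control library, and bars for exact 95% Poisson intervals that cover counting error only. Nppb (15.02 and 2.44 RPKM) and Nppa (861 and 168 RPKM) are well apart between the libraries, while the Clcn6 intervals overlap.

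Gm13054 (ENSMUSG00000086806, minus strand, 147375200 to 147378123) is annotated as an antisense gene and shares 989 bases with the span of Nppa, or 72.8% of that span. Its deposited value was 703 RPKM in the mutant library (697 to 709) and 138 RPKM in the control library (135 to 140.6), 5.10-fold higher in the mutant library (4.99 to 5.21). This was 81.7% of the Nppa value in mutant cells and 82.3% in control cells. In the GENCODE M21 exons, 532 of the 820 exon bases of Gm13054 (64.9%) lie in exons of Nppa. Of its 3 exons, 2 lie wholly inside the Nppa span, and the remaining exon, of 146 bases, lies outside it. The smallest counted length that turns both Gm13054 values into whole reads was 672 bases, a length equal to the 2 inner exons taken as end minus start, although its multiples give whole reads too. The library kit does not mark strand, so these reads cannot be told apart from those of Nppa, and the Gm13054 value is not a separate measurement of an antisense RNA. Equally, part of the Nppa value could come from the other strand.

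Clcn6, which encodes an endosomal chloride and proton exchanger, lies on the minus strand (ENSMUSG00000029016, 147378368 to 147412930), 244 bases beyond Gm13054. It stood at 2.08 RPKM in the mutant library (1.89 to 2.29) and 1.90 RPKM in the control library (1.71 to 2.11). The fold was 1.09 with an interval of 0.947 to 1.26 from at least 424 and 359 reads, which includes no difference. Genes of its level had a median log2 RPKM ratio of -0.40, against 0.13 for Clcn6, so that it lay 0.53 above genes of like level. For Nppb the median of genes of like level was -0.25, against a log2 RPKM ratio of 2.62, and for Nppa it was 0.02, against 2.36. Nppa had 414 times the RPKM of Clcn6 in mutant cells and 88.2 times in control cells, and Nppb had 7.23 times in mutant cells and 1.28 times in control cells.

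Of the 4 locus genes, 3 reached 5 RPKM in at least 1 library, and these 3 exceeded their control value 2-fold or more on the log2(RPKM + 1) scale, which understates the change of low genes. Among 6343 genes at that level, 64 (1.01%) were higher by this size and 170 (2.68%) lower. With the median ratio of genes of like level removed, the counts were 87 higher and 100 lower. On the log2(RPKM + 1) scale 0 of the 6343 genes had a higher ratio than Nppa, and 2, Nppa and Gm13054, had a higher ratio than Nppb. These genes were chosen for such values, so nothing further is read from their count.

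**Figure D2:**
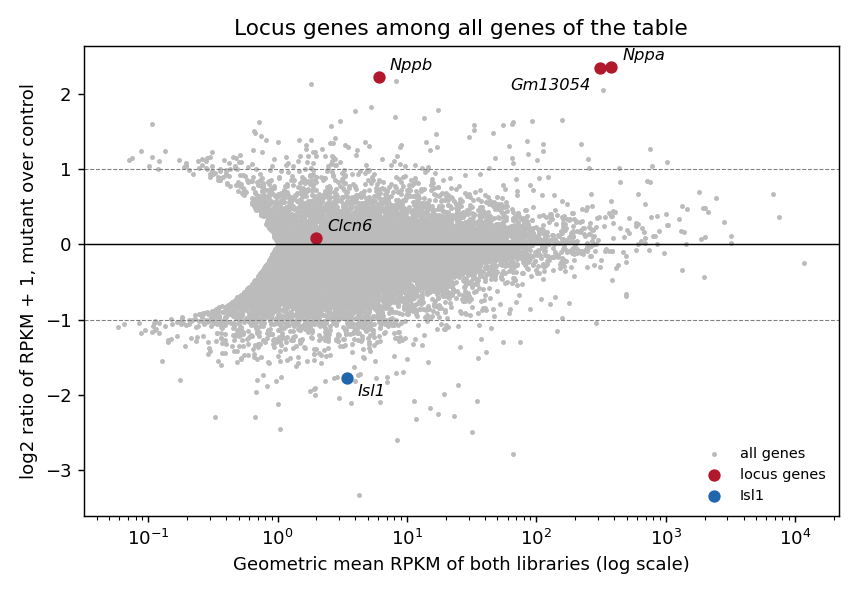
The log2 ratio of RPKM + 1, mutant over control, against the geometric mean RPKM of both libraries (log scale) for 12446 gene symbols, with dashed lines at 2-fold. Nppa and Gm13054 lie together at high level, Nppb lies at a similar ratio and a far lower level, Clcn6 lies near 0, and Isl1 lies below the lower line.

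The genes around the locus were compared next, to see which of them differed with Nppa and Nppb. Within 500 kb of Nppa, measured between the lowest coordinates of the genes, the table held 22 genes, of which 18 were not locus genes. Of these, 9 were higher and 9 lower in the mutant library, and their median log2(RPKM + 1) ratio was 0.01, beside -0.18 for all 12446 symbols. Among all symbols 32.9% were higher and 67.1% lower. On the same scale 0 of the 18 reached 2-fold in either direction. Of all symbols 1.12% reached it upward and 3.93% downward, so a count of 0 among 18 genes says little about them. By plain RPKM ratio 15 of the 18 lay within 1.5-fold, as did 65.4% of all symbols.

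The nearest gene on the Nppb side, 2510039O18Rik, begins 59.8 kb before Nppa and had 1.60 RPKM in mutant cells and 1.42 RPKM in control cells, a fold of 1.13 with an interval of 0.949 to 1.35. Plod1, a collagen lysyl hydroxylase gene, had 13.8 RPKM in mutant cells and 12.9 RPKM in control cells (1.07-fold, 1.04 to 1.10). Mfn2, which encodes the mitochondrial fusion protein mitofusin 2, was the best expressed of these neighbours with 47.7 RPKM in mutant cells and 45.7 RPKM in control cells (1.04-fold, 1.03 to 1.06). These genes, on the side of Nppb away from Nppa, thus differed by far less than Nppb itself.

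On the Clcn6 side, Agtrap, which encodes a protein that binds the angiotensin II type 1 receptor, had 2.999 RPKM in mutant cells and 2.38 RPKM in control cells (1.26-fold, 0.991 to 1.60). Mad2l2, a gene of DNA damage repair, had 6.35 RPKM in mutant cells and 6.99 RPKM in control cells (0.909-fold, 0.835 to 0.990). Fbxo6, a ubiquitin ligase subunit gene, had 3.66 RPKM in mutant cells and 5.21 RPKM in control cells (0.702-fold, 0.627 to 0.786), and its neighbour Fbxo44 1.23 RPKM in mutant cells and 1.49 RPKM in control cells. Farther out, the growth kinase gene Mtor had 2.69 RPKM in mutant cells and 3.35 RPKM in control cells. Over both sides, 3 genes were past 1.5-fold. On the Nppb side these were Rps19-ps3 (0.823 RPKM in mutant and 1.38 RPKM in control cells) and Zfp933 (0.746 RPKM in mutant and 1.15 RPKM in control cells). On the Clcn6 side it was a U1 small RNA gene (1.502 RPKM in mutant and 0.662 RPKM in control cells). All 3 were low in both libraries.

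**Figure D3:**
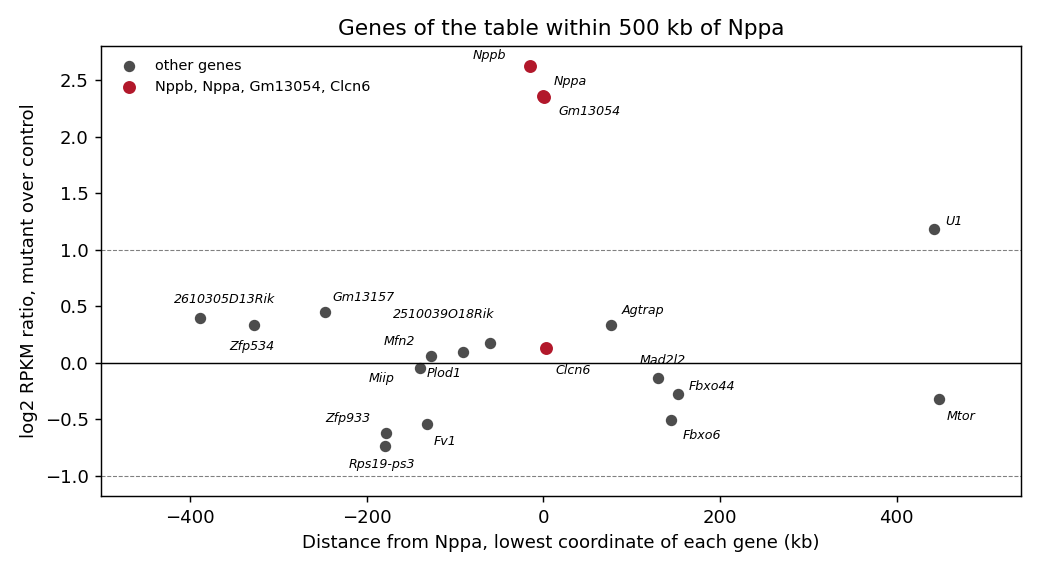
The log2 RPKM ratio, mutant over control, of 20 of the 22 genes of the table within 500 kb of Nppa, against the distance in kb between the lowest coordinates, with dashed lines at 2-fold. Nppb, Nppa and Gm13054 stand above 2, and the other genes, Clcn6 included, lie between -1 and 0.5 except for the low U1 gene.

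The rest of the natriuretic pathway did not share the size of the ligand difference. Of 24 listed pathway genes 19 were in the table, and 17 of them were not Nppa or Nppb. Of these 17, 6 were higher and 11 lower in the mutant library, with a median log2(RPKM + 1) ratio of -0.24. Among all symbols 32.9% were higher and 67.1% lower by any amount, with a median of -0.18. Npr3, the clearance receptor that removes the peptides, had 1.39 RPKM in mutant cells and 0.530 RPKM in control cells, a fold of 2.62 (interval 1.78 to 3.95, on 102 mutant and 36 control reads or more). Npr2, the receptor of the C-type peptide, had 3.05 RPKM in mutant cells and 4.33 RPKM in control cells (0.704-fold, 0.660 to 0.750). Npr1 and the third ligand gene Nppc were not analysed here.

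Among the processing enzymes, Corin had 25.5 RPKM in mutant cells and 29.2 RPKM in control cells (0.873-fold, 0.847 to 0.901). Furin, whose protease cuts the precursor of the B-type peptide, had 2.31 RPKM in mutant cells and 4.71 RPKM in control cells, 2.04-fold lower in the mutant library. The peptide-degrading enzyme genes Ide and Mme went opposite ways. Ide had 14.2 RPKM in mutant cells and 16.4 RPKM in control cells, and Mme, the neprilysin gene, had 1.46 RPKM in mutant cells and 1.07 RPKM in control cells. Pcsk6, a protease gene that activates corin, was counted with 51 reads in the mutant library and stood at the table's fill value in the control library, so no fold is given. Gucy1a2, a soluble guanylate cyclase subunit gene, stood at the fill value in the mutant library and had 21 reads in the control library. These were the only genes among the 17 past 2-fold on the log2(RPKM + 1) scale, a size that 1.12% of all symbols passed upward and 3.93% downward.

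Downstream of cyclic GMP, 5 of 7 measured effector genes were lower and 2 higher. This count lay near the background, since 67.1% of all symbols were lower. Prkg1, the cyclic GMP-dependent protein kinase gene, had 4.03 RPKM in mutant cells and 5.99 RPKM in control cells (0.673-fold, 0.619 to 0.732). The phosphodiesterase gene Pde5a had 0.520 RPKM in mutant cells and 1.49 RPKM in control cells, 2.86-fold lower in the mutant library, and Pde9a had 9.31 RPKM in mutant cells and 5.30 RPKM in control cells, 1.76-fold higher. Vasp, whose product is a substrate of that kinase, had 5.22 RPKM in mutant cells and 3.09 RPKM in control cells (1.69-fold, 1.55 to 1.84).

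Regulators known to act on Nppa lay near the background. Of 21 listed, 20 were in the table, with 5 higher and 15 lower, while 67.1% of all symbols were lower. Their median log2(RPKM + 1) ratio was -0.17, beside -0.18 for all symbols. Among activators, Tbx5, a T-box activator of the chamber muscle, had 52.6 RPKM in mutant cells and 51.5 RPKM in control cells (1.02-fold, 1.00 to 1.04). Gata4 had 5.13 RPKM in mutant cells and 7.36 RPKM in control cells (0.698-fold, 0.667 to 0.729), and Myocd, the serum response factor coactivator gene, had 15.3 RPKM in mutant cells and 17.4 RPKM in control cells. Among repressors, Tbx3 had 3.45 RPKM in mutant cells and 9.90 RPKM in control cells, 2.87-fold lower by RPKM, and was the only listed regulator past 2-fold on the log2(RPKM + 1) scale. By plain RPKM the activator gene Nfatc1 was past 2-fold as well, with 0.547 RPKM in mutant cells and 1.14 RPKM in control cells, 2.08-fold lower. The histone deacetylase gene Hdac5 had 7.29 RPKM in mutant cells and 14.2 RPKM in control cells, 1.95-fold lower. Jarid2, which encodes a chromatin repressor of Nppa, had 13.2 RPKM in mutant cells and 13.3 RPKM in control cells.

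Genes of the working heart muscle were mostly higher, by less than Nppa. Of 20 listed, 17 were in the table, with 15 higher and 2 lower, 4 of them at least 2-fold higher, and a median log2(RPKM + 1) ratio of 0.56. Among all symbols 32.9% were higher and 1.12% at least 2-fold higher. Without the ventricular light chain genes Myl2 and Myl3, 2 of 15 were at least 2-fold higher and the median was 0.38. The 8 cardiomyocyte markers given below had a median of 0.41, so a shift of this size was not particular to this list. Ankrd1, a stress-responsive muscle gene, had 1505 RPKM in mutant cells and 705 RPKM in control cells (2.13-fold). Smpx, a small muscle protein gene, had 90.2 RPKM in mutant cells and 54.9 RPKM in control cells (1.64-fold), while Xirp1, a gene of the muscle cell junction, had 23.7 RPKM in mutant cells and 32.6 RPKM in control cells (0.728-fold). Bmp10, another secreted product of heart muscle, was not analysed here.

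**Figure D4:**
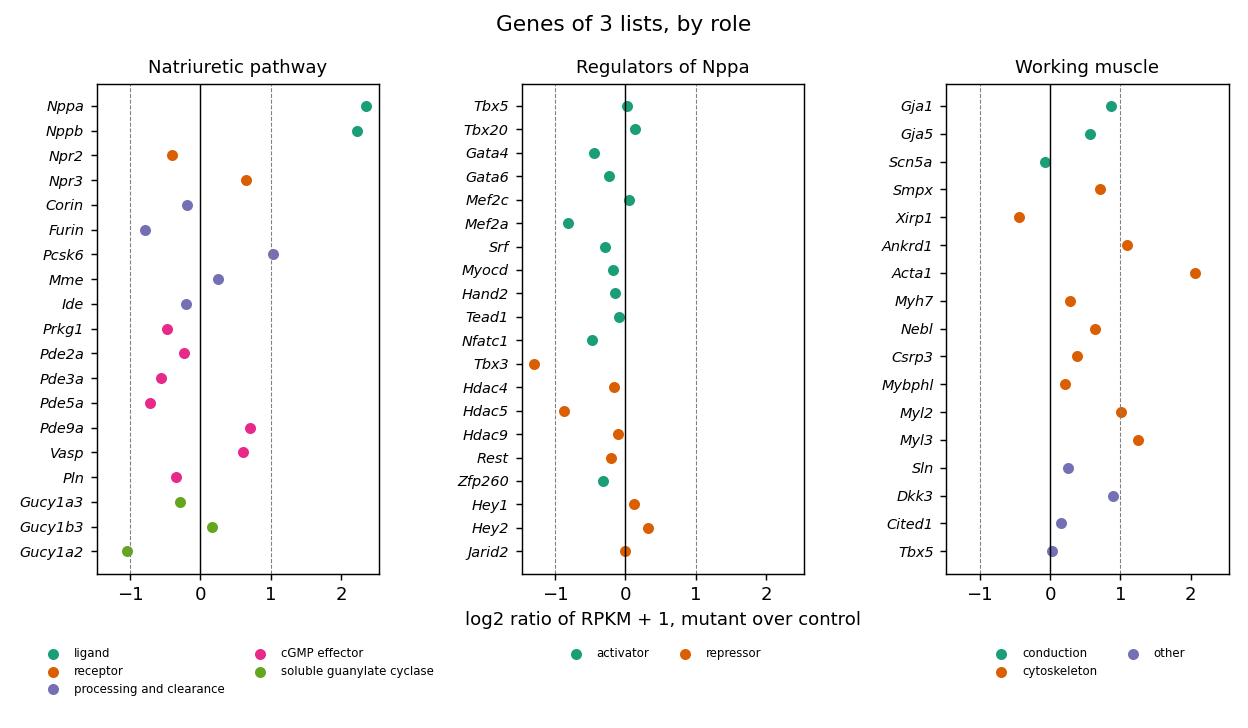
The log2 ratio of RPKM + 1, mutant over control, of each measured gene of the natriuretic pathway, of regulators of Nppa and of working muscle, coloured by role, with dashed lines at 2-fold. Nppa and Nppb stand above 2 while the other pathway genes scatter around 0, Tbx3 is the lowest regulator, and working muscle genes lie mostly right of 0.

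Markers of other cell types differed between the libraries as well. In bulk RNA, fewer cells of a type and less RNA per cell cannot be told apart. All 8 cardiomyocyte markers were measured, and their summed level was 18956 RPKM in mutant cells and 13432 RPKM in control cells, 1.41-fold higher. Of the 8, 7 were higher and 1, Ttn, was lower, with a median log2(RPKM + 1) ratio of 0.41. Among all symbols 32.9% were higher and 67.1% lower, with a median of -0.18. The pacemaker markers (7 of 7) summed to 28.6 RPKM in mutant cells and 65.4 RPKM in control cells. Fibroblast markers (6 of 6) summed to 176 RPKM in mutant cells and 386 RPKM in control cells, and erythroid markers (6 of 6) to 46.8 RPKM in mutant cells and 287 RPKM in control cells. Macrophage markers (4 of 5) summed to 6.39 RPKM in mutant cells and 37.0 RPKM in control cells, and endothelial markers (5 of 6) to 9.49 RPKM in mutant cells and 20.3 RPKM in control cells. Epicardial markers (5 of 5) summed to 84.7 RPKM in mutant cells and 62.0 RPKM in control cells, with 3 higher and 2 lower and a median log2(RPKM + 1) ratio of 0.02. Among them Krt19, a keratin gene, had 28.8 RPKM in mutant cells and 9.77 RPKM in control cells. No measured marker was at 0, but every symbol compared reached 1 RPKM in at least 1 library and some values are filled. The absence of a 0 therefore says nothing about which cells were present. The part of these shifts in the peptide differences was not tested.

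The peptide genes were also set against muscle markers within each library, as a description. The part of muscle content in their difference was not tested. Nppa was 4.54% of the summed cardiomyocyte markers in mutant cells and 1.25% in control cells, 3.64-fold higher. Against each of the 8 markers alone, the fold of Nppa lay between 3.23 (Actc1) and 6.14 (Ttn). Nppb was 0.0792% of that sum in mutant cells and 0.0182% in control cells, 4.36-fold higher, and lay between 3.88 and 7.36 against single markers.

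Genes with a ratio most like that of Nppa were named by the nearest log2(RPKM + 1) ratio over these 2 libraries. Only named protein-coding genes other than the locus genes were considered. Nppb, left out for this reason, had a ratio of 2.22, nearer to the 2.35 of Nppa than that of any gene named below. At 5 RPKM or more they were Lims2, Cplx2, Acta1, Tnni2, Lmod3 and Tnnt3. At 100 RPKM or more, where 19 of 328 genes were at least 2-fold higher, they were Acta1, Bnip3, Slc2a1, Mest, Myl3 and Myl1. Acta1, the skeletal actin gene, came nearest to Nppa at a like level, with 672 RPKM in mutant cells and 161 RPKM in control cells (4.17-fold). Mest, an imprinted gene, had 1167 RPKM in mutant cells and 485 RPKM in control cells (2.41-fold), and Myl1, a myosin light chain gene, 370 RPKM in mutant cells and 168 RPKM in control cells (2.21-fold).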

How the data were processed

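RNA from sorted sinoatrial node cells was sequenced from 1 Isl1 mutant and 1 control library, each pooled from embryos of a genotype, per the labels' protocols. Trim Galore, FastQC, TopHat2, Bowtie2 and the build mm9 come from the submitters' processing notes, and no source used here names the program behind the gene table. The deposited values were taken to be RPKM. A read total was fitted for each library on 314 short single-exon genes. Value times length, scaled by that total, gave whole reads within 0.01 in 304 (mutant) and 312 (control) of these same genes. Because the totals were fitted on the genes checked, this was not an independent check of the unit. The log2 ratio in the authors' deposited table equals that of the RPKM columns, with a largest difference of 1.89e-07, and their signed fold, a deposited score, was not used. A fill value worth 1.56 mutant or 1.44 control reads stands in place of some values.

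Reads were recovered as the smallest whole numbers fitting both values, so they are lower limits of the counted reads, not of distinct reads. For Nppa and Nppb the smallest counted lengths, 1004 and 890 bases, exceed their 865 and 781 exon bases. Some bases, and reads on them, may thus be counted more than once, and the intervals would then be too narrow. Intervals of folds are 95% Clopper-Pearson intervals of the mutant share of these reads and reflect counting error alone, since PCR copies are not independent. For symbols with several rows the row with the highest mean was kept. Sizes use a pseudocount of 1, a floor of 5 RPKM for the 2-fold counts and of 1 RPKM for lists. Every symbol compared reached 1 RPKM in at least 1 library, so the list floor removed none. A gene low in one library is thus present through its level in the other. Named genes were the locus genes, Isl1, all table genes within 500 kb of Nppa, the genes of 3 lists, and the 6 nearest by ratio at each of 2 levels, of which some are not reported here while counts and medians include them. The locus genes and lists were chosen with earlier results of these data known. Exon lengths came from GENCODE M21 (GRCm38), with no coordinates moved between builds, and promoters from RefSeq. Alternatives were other pseudocounts, floors, scalings and windows. Python 3.11.15, pandas 2.3.3 and scipy 1.17.1 were used, and the scripts were tested on simulated data.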

Additional observations from a re-analysis of the deposited data

How the results depend on the processing

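Nppa, Nppb and Gm13054 were higher in the mutant library under each of 6 alternatives. The log2 RPKM ratio of Nppa, 2.36 as deposited, was 2.43 when centred on the median gene or on the trimmed mean and 1.95 when centred on the median cardiomyocyte marker, a scaling chosen after seeing the data. That of Gm13054, 2.35 as deposited, was 2.42 and 1.94 under the same scalings. That of Nppb, 2.62 as deposited, was 2.87 with the median of its level bin removed, 2.22 with a pseudocount of 1 and 2.21 against the cardiomyocyte marker. Clcn6 had no stable direction, with 0.13 as deposited, 0.53 with its level bin removed and -0.29 against the cardiomyocyte marker. Genes at least 2-fold higher, 64 in the report, numbered 36 with a pseudocount of 5 and 139 with no floor. Here and below, no floor equals a floor of 1 RPKM, which every symbol compared reached in at least 1 library. Genes at least 2-fold lower, 170 in the report, numbered 265 with a pseudocount of 0.1, 36 with 5, 489 with no floor, 50 with 5 RPKM asked of both libraries and 100 with level bins removed. The cause of these shifts was not tested. Over the alternatives the list medians lay between -0.21 and -0.01 for the pathway, -0.12 and 0.08 for the neighbours, -0.23 and -0.09 for the regulators and 0.53 and 0.63 for working muscle. Motif counts before Nppa and Nppb were equal with 250 bases only. No paired analysis was possible because each genotype has 1 library, and no library could be left out. Read depth limits genes of low level such as Clcn6 and Npr3.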

Other observations

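The place of the locus among all genes depends on the scale. Ranked by the plain RPKM ratio over 12446 symbols, with no floor and no pseudocount, Nppb ranked 71, Nppa 79 and Gm13054 80, mostly behind genes of low level. Genes past 5 RPKM stood ahead of Nppa too. Cplx2 (5.87 RPKM in mutant and 0.564 RPKM in control cells) ranked 43, and Lims2 (19.2 RPKM in mutant and 3.48 RPKM in control cells) ranked 75. By the log2(RPKM + 1) ratio, 0 genes at 5 RPKM or more stood above Nppa.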
